A study of Mus musculus with 14 samples.

Results

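Sugars cross the wall of the small intestine through a few carrier proteins, and 5 genes of that route were followed here through mouse ileum. They are Slc5a1, Slc2a5, Slc2a2, Slc2a1 and Khk, and all 5 were found by their symbol among the 46855 named genes of the deposited expression table. The tissue was the whole ileum, the last stretch of the small intestine, of the inbred mouse strain C57BL/6N, sequenced as RNA in 14 libraries. Of these, 4 came from untreated mice at postnatal day 14 (P14, suckling) and 4 from untreated mice at day 24 (P24, the age of weaning in the title of the series). A further 3 came from mice given saline (PBS) and 3 from mice given recombinant mouse interleukin-22 (rmIl22), a cytokine that acts on epithelial cells. The injected dose was 0.1 µg per g body weight in 100 µL, or 100 µL of saline alone. Both kinds of injected mice were treated at days 14 and 15 and killed at day 16, and all 4 groups are wild type by their titles. The labels contradict themselves here, since their age entry reads day 14 under PBS but day 24 under rmIl22, so groups were taken from the titles and day 16 from the treatment protocol.

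Slc5a1 encodes SGLT1, which brings glucose and galactose into the enterocyte from the gut lumen together with sodium. Slc2a5 encodes GLUT5, the fructose carrier of the same surface, and Slc2a2 encodes GLUT2, through which glucose, galactose and fructose leave the cell towards the blood. Slc2a1 encodes GLUT1, a glucose carrier used by many cell types, and Khk encodes ketohexokinase, which phosphorylates fructose as the first step of its breakdown. Milk sugar is digested to glucose and galactose, whereas solid food also brings starch, sucrose and fructose. In rodents the gut is known to gain fructose transport around weaning.

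All 5 genes are protein coding and lie on the plus strand. On mm10 (GENCODE annotation), Slc5a1 (ENSMUSG00000011034.6) spans chr5:33104219-33162870 and Khk (ENSMUSG00000029162.15) chr5:30921431-30931248. Slc2a5 (ENSMUSG00000028976.10) spans chr4:150119283-150144169 and Slc2a1 (ENSMUSG00000028645.11) chr4:119108711-119137983. Slc2a2 (ENSMUSG00000027690.13) spans chr3:28697903-28731359. A processed pseudogene on the same strand, Gm15936, lies within the Slc5a1 span and reached at most 7.18 TPM, and an antisense gene at Slc2a2, 1700112D23Rik, reached at most 0.994 TPM. Slc2a1 is overlapped by Mir1957a on its own strand, with at most 4.36 TPM, and by the antisense genes Gm12867 and Gm12868, with at most 0.207 TPM. How reads were shared out between overlapping genes is not given in the sources used here.

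The promoter sequences of Slc5a1, Slc2a5 and Khk are shown because these 3 genes rose with age, and that of Slc2a2 because it was the member lowered by IL-22. The sequences are RefSeq's on GRCm38.p6, plus strand, up to 250 bases before the RefSeq start, and the first 3 end before the GENCODE gene start. They cover chr5:33103969-33104218 for Slc5a1, chr4:150119094-150119282 for Slc2a5 and chr3:28697653-28697902 for Slc2a2. For Slc2a5 and Khk the RefSeq start lies inside the GENCODE span. The Slc2a5 sequence is therefore cut to the 189 bases before the GENCODE start and does not reach the RefSeq start. For Khk a stretch of 26 bases at chr5:30921484-30921509 is shown. Capitals mark exact matches, on either strand, to the E-box CACGTG, the HNF1 half-site GTTAAT or the GC box GGGCGG.
Slc5a1: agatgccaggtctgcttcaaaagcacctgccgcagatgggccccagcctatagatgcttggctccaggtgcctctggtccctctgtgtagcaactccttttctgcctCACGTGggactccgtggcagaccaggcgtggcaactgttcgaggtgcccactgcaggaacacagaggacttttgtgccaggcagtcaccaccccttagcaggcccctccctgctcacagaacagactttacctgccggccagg
Slc2a5: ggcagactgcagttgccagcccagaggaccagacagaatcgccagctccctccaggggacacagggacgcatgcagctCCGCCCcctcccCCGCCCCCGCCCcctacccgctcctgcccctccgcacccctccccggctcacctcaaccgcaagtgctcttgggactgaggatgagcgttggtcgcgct
Slc2a2: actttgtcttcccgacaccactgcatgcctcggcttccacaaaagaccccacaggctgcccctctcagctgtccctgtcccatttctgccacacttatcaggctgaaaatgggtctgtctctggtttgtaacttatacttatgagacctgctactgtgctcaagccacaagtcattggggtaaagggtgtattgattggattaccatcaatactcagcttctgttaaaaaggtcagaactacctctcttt
Khk: ccgtCACGTGacaccGTTAATctggc

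CACGTG is the core of the element read by several helix-loop-helix factors, and it stood in the full 250-base windows of Slc5a1 (bases -143 to -138 from the RefSeq start) and Khk (-71 to -66). It was present in 6.02% of 32851 such windows in the RefSeq table. The Khk window also held GTTAAT at -60 to -55, a match found in 6.43% of windows, and the Slc2a5 window held 3 copies of GGGCGG, a match found in 32.7%. No window of the 5 genes held TTCNNNGAA, the palindrome named for STAT factors (7.02% of windows), or TATAAA (12.4%), and the Slc2a2 window held none of the 5 motifs searched. Slc2a1, not printed, held 2 copies of GGGCGG, and the Khk window 1. These motifs do not overlap each other by their letters, and a match is a description of the letters only.

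Each library held between 35.6 M and 46.5 M gene-assigned reads (median 42.7 M), as recovered from the deposited values. Expression is given in TPM, a transcript abundance corrected for gene length and scaled to the same total in every library, so levels of different genes can be set side by side. A gene is called changed where the limma test on log2(TPM + 1) gave a Benjamini-Hochberg adjusted p under 0.05 over all genes tested. Fold changes on that scale understate the change of low genes. Library 2 of the rmIl22 group stood apart: its reads differed from those of rmIl22 libraries 1 and 3 by a chi-square per degree of freedom of 254.6 and 222.1, against 30.9 to 78.0 for the other pairs within groups. By Xist and the Y-linked Ddx3y, 7 libraries read as male, namely P14 libraries 1 and 2, P24 library 1, all 3 PBS libraries and rmIl22 library 1. Fabp6 and Slc10a2, the ileal bile acid genes, summed to 353 to 1196 TPM at P14 and 15098 to 22197 TPM at P24, and to 219 to 3003 TPM in the PBS and 1699 to 10244 TPM in the rmIl22 libraries. Whether replicate mice came from separate litters is not stated, so p-values measure the spread between these libraries. In whole tissue, fewer cells of a type and less RNA per cell cannot be told apart.

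Between P14 and P24, the genes for sugar entry and for the first step of fructose use rose together, while the gene for sugar exit did not pass the test. Slc2a5 rose most among the 5 genes, from 1.53 ± 0.496 to 14 ± 3.52 TPM (mean ± SD, n = 4 each), a 9.11-fold ratio of means. Slc5a1 rose 3.9-fold and Khk 2.83-fold by the same measure. Of the 5 genes, 3 were called higher, 1 lower and 1 was not called, beside 58.3% of all 14651 genes tested that were called in this comparison (14.6% higher and 43.7% lower).

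Slc5a1 stood at 101, 161, 177 and 162 TPM in P14 libraries 1, 2, 4 and 5. In P24 libraries 1, 2, 6 and 8 it stood at 541, 683, 657 and 461 TPM. Every P24 library lay above every P14 library, a separation shown by 13% of genes tested in that direction and by 39.4% in the other. P14 library 1 was the lowest of all 14. On the log2 scale Slc5a1 rose by 1.97 (SE 0.18, limma adjusted p = 3.31e-06).

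Slc2a5, the fructose carrier, was scarce in suckling ileum, with 1.06, 1.16, 1.89 and 2.03 TPM in P14 libraries 1, 2, 4 and 5, which rest on 85 to 169 reads. It reached 14.5, 16.5, 16 and 8.84 TPM in P24 libraries 1, 2, 6 and 8. The groups did not overlap, and P24 library 8 was the lowest of its group for Slc2a5, Slc5a1, Slc2a2 and Khk alike. Slc2a5 rose by 2.55 on the log2 scale (SE 0.20, limma adjusted p = 7.77e-07), and the authors' deposited table gave 3.51 (adjusted p = 1.54e-26).

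Khk, the fructose kinase, had 34.1, 38.9, 44.7 and 45.6 TPM in P14 libraries 1, 2, 4 and 5. It had 131, 135, 110 and 85.6 TPM in P24 libraries 1, 2, 6 and 8. The ranges did not overlap, and the log2 fold change was 1.46 (SE 0.15, limma adjusted p = 7.55e-06). Khk was already above Slc2a5 in every P14 library, by 22.5- to 33.7-fold in TPM, and this excess was 6.9- to 9.69-fold in the P24 libraries.

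Slc2a2, the exit carrier, varied within the suckling group: 9.33, 20.2, 30.2 and 30.4 TPM in P14 libraries 1, 2, 4 and 5. The P24 libraries 1, 2, 6 and 8 had 10.5, 15.8, 16.8 and 8.66 TPM. P14 library 1 lay inside the P24 range, whereas the other 3 P14 libraries lay above all P24 libraries. Its log2 fold change was -0.67 (SE 0.32, 95% interval -1.38 to 0.04, limma adjusted p = 0.0944), and without P14 library 1 it was -1.03 (adjusted p = 0.00195). With the sex read from the libraries as a term, chosen after seeing the data, it was -0.86 (adjusted p = 0.0184). It was smaller with median-scaled TPM (-0.38, adjusted p = 0.385), quantile normalisation (-0.43, 0.338) and voom on recovered reads (-0.42, 0.346), and the authors' deposited table gave -0.47 (adjusted p = 0.384).

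Slc2a1, the widely used glucose carrier, had 10.9, 13.2, 10.3 and 7.63 TPM in P14 libraries 1, 2, 4 and 5. It had 7.05, 6.93, 7.42 and 7.67 TPM in the P24 libraries 1, 2, 6 and 8, where it varied little. P14 library 5 fell within the P24 range, so the groups overlapped. Slc2a1 fell by 0.45 on the log2 scale (SE 0.14, limma adjusted p = 0.0156). The median of all genes tested moved by -0.25 in the same comparison, and with TPM scaled to an equal median the change in Slc2a1 was -0.18 (adjusted p = 0.215). Without P14 library 2 the call was lost as well (adjusted p = 0.0519), and the authors' deposited table gave -0.21 (adjusted p = 0.381).

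**Figure D1:**
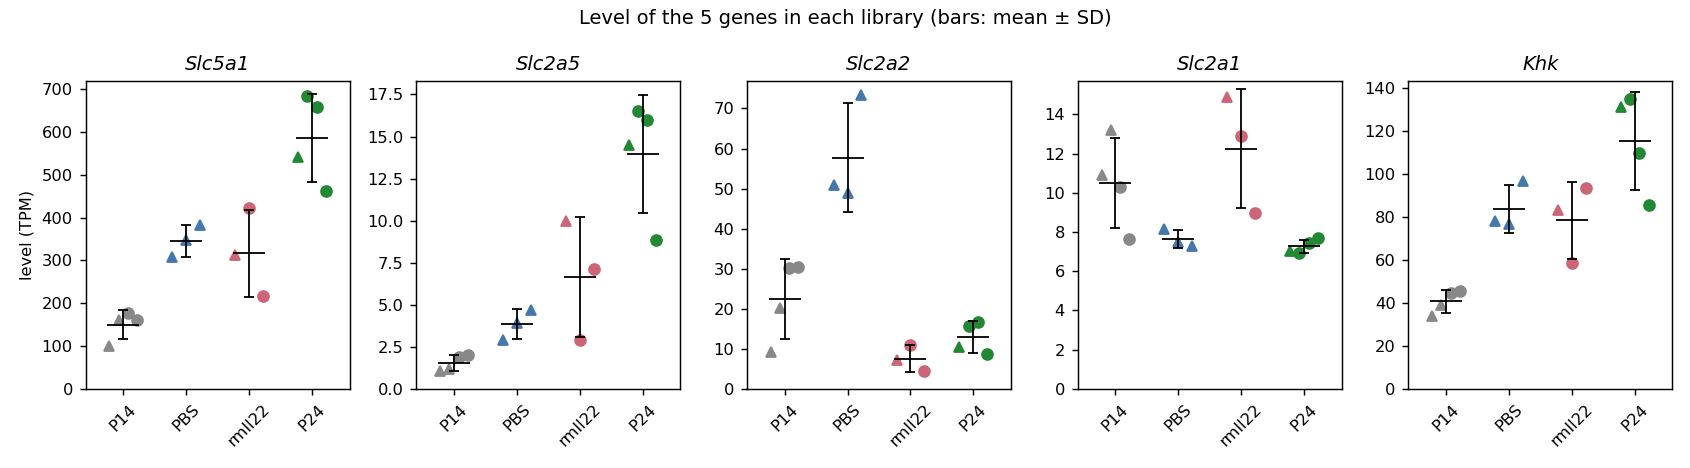
Level in TPM (vertical axis, linear, from 0) of the 5 genes in each of the 14 libraries, by group. Points are libraries, triangles those in which Y-linked genes were read and circles those in which Xist was read, and the bars give the mean and SD of each group. Slc5a1, Slc2a5 and Khk are lowest at P14 and highest by mean at P24, whereas Slc2a2 is highest in the PBS group.

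The summed levels of epithelial and enterocyte marker genes were higher at P24, but single genes of both lists went in different directions. The summed level of 5 epithelial genes (Epcam, Cdh1, Krt8, Krt18, Krt19) ran from 4528 to 5820 TPM at P14 and from 7779 to 9937 TPM at P24. Of the 5, 2 were called higher and 1 lower: Krt8 and Krt19 rose by 1.44 and 1.69 on the log2 scale and Krt18 fell by 1.06. Epcam (0.08) and Cdh1 (0.35) were not called. The 5 enterocyte genes (Vil1, Alpi, Fabp2, Fabp1, Slc51a) summed to 2621 to 4236 TPM and 8482 to 11527 TPM. Among them 3 were called higher and 1 lower, Alpi, which fell by 1.99. Endothelial markers fell in 4 of 4 genes and fibroblast markers in 3 of 4, while red blood cell markers rose in 4 of 5 (beside 43.7% of all genes lower and 14.6% higher), from a sum of 132 to 219 TPM to one of 218 to 801 TPM. No marker gene of these lists was at 0 throughout a group. Scaled to the epithelial genes, Slc5a1 still rose, with a log2 fold change of 1.47 (limma adjusted p = 1.90e-05), as did Slc2a5 with 2.16 (4.83e-06) and Khk with 0.97 (1.13e-04). On that scale, which takes in the rises of Krt8 and Krt19, Slc2a2 fell by 1.14 (adjusted p = 0.0089). For the other markers, their part in these results was not tested.

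After injection of IL-22, Slc2a2 was the member that changed: its mean was 57.7 ± 13.6 TPM in the PBS group and 7.62 ± 3.28 TPM in the rmIl22 group (n = 3 each), a ratio of 7.58. None of the other 4 genes was called, beside 2.69% of the 14456 genes tested that were called (0.443% higher and 2.25% lower). Without rmIl22 library 2, Slc2a5 was called as well, beside 9.31% of genes called in that smaller set of libraries.

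Slc2a2 had 50.9, 48.9 and 73.4 TPM in PBS libraries 1, 2 and 3. It had 7.3, 11 and 4.51 TPM in rmIl22 libraries 1, 2 and 3. All saline libraries lay above all IL-22 libraries, a separation shown by 15.4% of genes tested in that direction, and rmIl22 library 2, which stood apart across the transcriptome, was the highest of its group for Slc2a2. Slc2a2 thus had a log2 fold change of -2.82 (SE 0.29, 95% interval -3.50 to -2.13, limma adjusted p = 0.011). Leaving out single libraries gave -3.09 to -2.53, and the call was lost without PBS library 1 (adjusted p = 0.0633) or PBS library 3 (0.0829). With the sex term it was -2.80. Since all PBS libraries and only rmIl22 library 1 read as male, this is the difference between that 1 library and the PBS libraries. The authors' deposited table gave -2.84 (adjusted p = 1.11e-07).

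Enterocyte markers summed to 5325 to 7875 TPM in the PBS libraries and 4037 to 4921 TPM in the rmIl22 libraries, with 0 of 5 called by limma, and the summed epithelial genes overlapped between the groups (5592 to 6629 and 4953 to 8324 TPM). Before adjustment 2 of the 5, Alpi and Fabp2, passed as lower, and voom on recovered reads called 0. The share of all genes passing before adjustment was not counted. Scaled to the epithelial genes, Slc2a2 fell by 2.88 (limma adjusted p = 0.0068). Fabp1, an enterocyte fatty acid binding gene, ran from 73.2 to 1570 TPM in the PBS libraries and stood at 2.34, 699 and 2.32 TPM in rmIl22 libraries 1, 2 and 3. Some other markers also differed in this comparison. Slc10a2 and Fabp6 had log2 fold changes of 3.45 and 2.47 under IL-22, which passed before adjustment but not after it (limma adjusted p = 0.0976 and 0.309). Csf1r, a macrophage receptor, fell by 1.16 (limma adjusted p = 0.0151) and was the only 1 called of 4 macrophage markers tested. Adgre1 (0.17), C1qa (-0.24) and Cd68 (-0.35) were not called. Clps, a pancreatic enzyme cofactor, fell by 0.73 (limma adjusted p = 0.0416) and was the only 1 called of 2 pancreas markers tested. Prss1 and Ins2, also listed for the pancreas, reached at most 0.0596 and 0.0592 TPM and were not tested. The part of these markers in the result was not tested.

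Lct, which encodes the milk sugar enzyme lactase, stood in the same order across libraries as Slc2a2 within the P14, PBS and rmIl22 groups, a pattern noticed after the values were seen. In P14 libraries 1, 2, 4 and 5, Lct had 46.7, 138, 404 and 468 TPM, rising as Slc2a2 did from 9.33 to 30.4 TPM. In PBS libraries 1, 2 and 3 it had 675, 588 and 827 TPM, and in rmIl22 libraries 1, 2 and 3 it had 66, 523 and 65.1 TPM. The relation was not tested. At P24, Lct was 1.65 to 4.48 TPM and Slc2a2 8.66 to 16.8 TPM, in a different order.

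**Figure D2:**
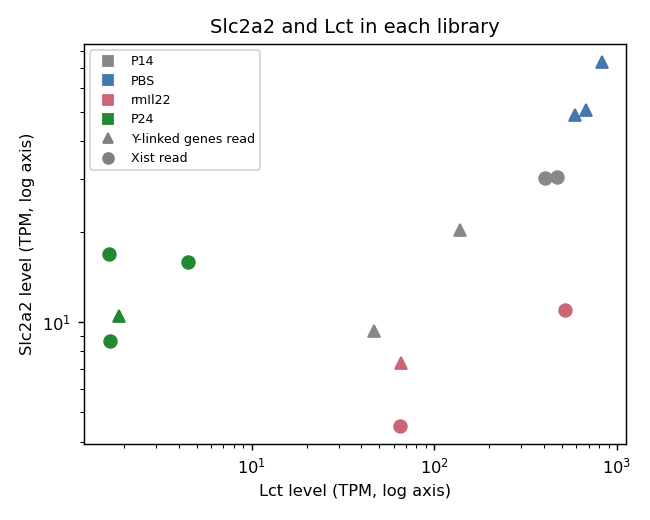
Slc2a2 level against Lct level in TPM, both on log axes, for the 14 libraries, coloured by group and with shapes by the sex read from the library. The P14 and PBS libraries climb together from 46.7 to 827 TPM of Lct, the rmIl22 libraries hold 4.51 to 11 TPM of Slc2a2 at 65.1 to 523 TPM of Lct, and the P24 libraries sit at 1.65 to 4.48 TPM of Lct.

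Slc2a5 had 2.94, 3.92 and 4.7 TPM in PBS libraries 1, 2 and 3 and 9.98, 2.89 and 7.1 TPM in rmIl22 libraries 1, 2 and 3. The IL-22 libraries 1 and 3 lay above all saline libraries, and library 2 lay below them. Over all 6 libraries the log2 fold change was 0.55 (SE 0.37, 95% interval -0.31 to 1.41, limma adjusted p = 0.583). Without rmIl22 library 2 it was 0.97 (adjusted p = 0.0213). With the sex term it was 1.19 and not called. This too is the difference between rmIl22 library 1 and the PBS libraries, the only ones that read as male.

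Slc5a1 had 307, 348 and 382 TPM in PBS libraries 1, 2 and 3 and 312, 421 and 218 TPM in rmIl22 libraries 1, 2 and 3. The IL-22 libraries lay on both sides of the saline range, and the log2 fold change was -0.17 (95% interval -0.72 to 0.38, limma adjusted p = 0.834). Khk had 78.2, 76.7 and 96.8 TPM in the PBS libraries and 83.3, 58.6 and 93.6 TPM in the rmIl22 libraries, in the same order. Its log2 fold change was -0.11 (95% interval -0.56 to 0.34, limma adjusted p = 0.866). For both genes the interval holds changes in either direction, so a small effect was not detectable with 3 libraries a group.

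Slc2a1 had 8.17, 7.48 and 7.29 TPM in PBS libraries 1, 2 and 3 and 14.9, 12.9 and 8.95 TPM in rmIl22 libraries 1, 2 and 3. All IL-22 libraries lay above all saline libraries, a separation in that direction shown by 5.62% of the genes tested. Its log2 fold change was 0.59 (SE 0.18, unadjusted p = 0.0133, limma adjusted p = 0.164). The authors' deposited table, which lists 1102 genes for this comparison with a highest adjusted p of 0.00999, gave Slc2a1 a log2 fold change of 0.71 (adjusted p = 0.00797). It does not list Slc5a1, Slc2a5 or Khk.

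The age effect and the IL-22 effect differed for each of the 5 genes when the difference itself was tested across all 14 libraries, beside 23.8% of the 15702 genes tested (6.51% positive and 17.3% negative). The difference, age effect minus IL-22 effect on the log2 scale, was 2.14 for Slc5a1 (SE 0.32, limma adjusted p = 4.31e-04), 2.00 for Slc2a5 (SE 0.43, 0.00487) and 1.58 for Khk (SE 0.26, 8.14e-04). For Slc2a2 it was 2.14 (SE 0.52, adjusted p = 0.00988), since the drop under IL-22 was larger than the difference between ages. For Slc2a1 it was -1.04 (SE 0.23, adjusted p = 0.00643), the only negative value, with a lower level at P24 and higher values under IL-22. The 5 differences kept an adjusted p under 0.05 in all 21 alternatives, the highest being 0.0295. Without any single library they ranged from 1.90 to 2.37 for Slc5a1, 1.57 to 2.32 for Slc2a5, 1.79 to 2.42 for Slc2a2 and 1.38 to 1.72 for Khk.

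**Figure D3:**
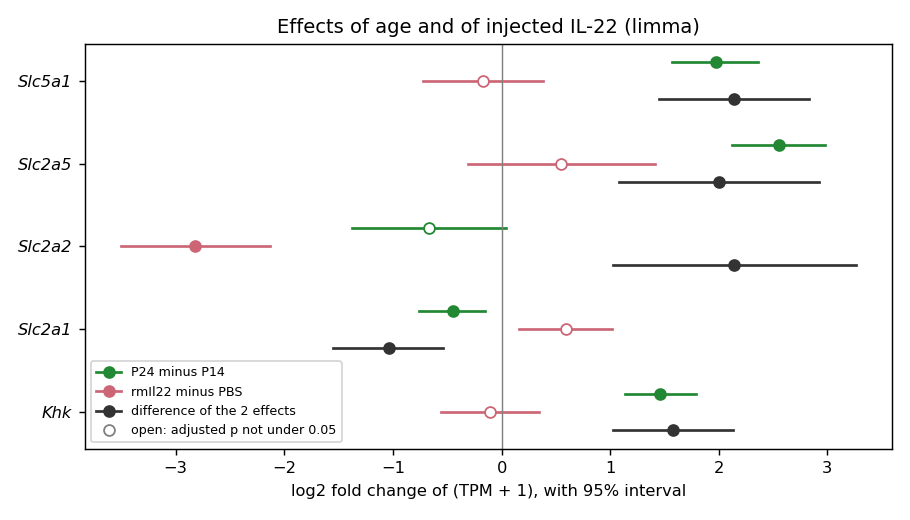
Log2 fold change of (TPM + 1) with its 95% interval (horizontal axis) for the 5 genes, from limma. Green gives P24 minus P14, red rmIl22 minus PBS and black the age effect minus the IL-22 effect, with open circles where the adjusted p was not under 0.05. Slc2a2 is the gene with a filled red point, at -2.82, and the black intervals all stay clear of 0.

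The order of the 4 groups differed between the genes. Slc5a1 was lowest at P14 (150 TPM), followed by rmIl22 (317 TPM) and PBS (346 TPM), whose ranges overlapped, and by P24 (585 TPM), above both without overlap. Khk had the same order of means, 40.8, 78.5, 83.9 and 115 TPM, but its PBS and P24 ranges overlapped. Slc2a5 ran from P14 (1.53 TPM) through PBS (3.85 TPM) and rmIl22 (6.65 TPM) to P24 (14 TPM), and only the step from P14 to PBS was free of overlap between neighbours. Slc2a2 had the order rmIl22, P24, P14 and PBS, with means of 7.62, 12.9, 22.5 and 57.7 TPM, and only the step from P14 to PBS was free of overlap. For Slc2a1, with means from 7.27 TPM at P24 to 12.3 TPM in rmIl22, every pair of neighbours overlapped.

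Saline-injected mice at day 16 had more of 4 of the 5 transcripts than untreated mice at day 14, with no overlap between libraries. The ratio of PBS to P14 means was 2.3 for Slc5a1, 2.51 for Slc2a5, 2.56 for Slc2a2 and 2.06 for Khk, and 0.728 for Slc2a1, whose ranges overlapped. Such a separation upwards was seen for 9.02% of the 14782 genes above the expression filter in these libraries, and one downwards for 7.56%. The groups differ in age, injection and, by the genes read, sex, which cannot be told apart, and no test was made.

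The balance between the genes was followed as the log2 ratio of their TPM within a library, which does not depend on the scaling of that library. In suckling ileum Slc2a2 exceeded Slc2a5 by 8.83- to 17.5-fold, and in weaned ileum the ratio of Slc2a5 to Slc2a2 was 0.953 to 1.38. The mean log2 ratio went from -3.79 ± 0.44 at P14 to 0.12 ± 0.24 at P24, a difference of 3.91 (two-sided exact permutation test, p = 0.0286, adjusted over the 4 ratios 0.0381). With 4 libraries against 4, 0.0286 is the smallest p this test can give. The ratio of Slc5a1 to Slc2a2 rose by 2.69 on the log2 scale, from 2.85 ± 0.46 to 5.54 ± 0.21, and that of Khk to Slc2a5 fell by 1.72, both with the same exact p. The ratio of Slc2a1 to Slc2a2 differed by 0.21, within its spread (exact permutation p = 0.686).

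The IL-22 comparison gave differences of 3.63, 2.82, 3.64 and -0.75 for Slc2a5 to Slc2a2, Slc5a1 to Slc2a2, Slc2a1 to Slc2a2 and Khk to Slc2a5. The log2 ratio of Slc5a1 to Slc2a2 was 2.60 ± 0.23 in the PBS group and 5.42 ± 0.17 in the rmIl22 group (n = 3 each, exact permutation p = 0.1, the smallest possible with 3 against 3). The 3 IL-22 libraries had 5.25 to 5.59, overlapping the P24 range of 5.29 to 5.73. That of Slc2a5 to Slc2a2 went from -3.91 ± 0.24 to -0.28 ± 1.44, with 0.45, -1.94 and 0.65 in rmIl22 libraries 1, 2 and 3. That of Slc2a1 to Slc2a2 went from -2.89 ± 0.38 to 0.75 ± 0.46, so that Slc2a1 exceeded Slc2a2 in all 3 IL-22 libraries and in no saline library. No ratio of this comparison can pass a threshold of 0.05 with 3 libraries a group.

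**Figure D4:**
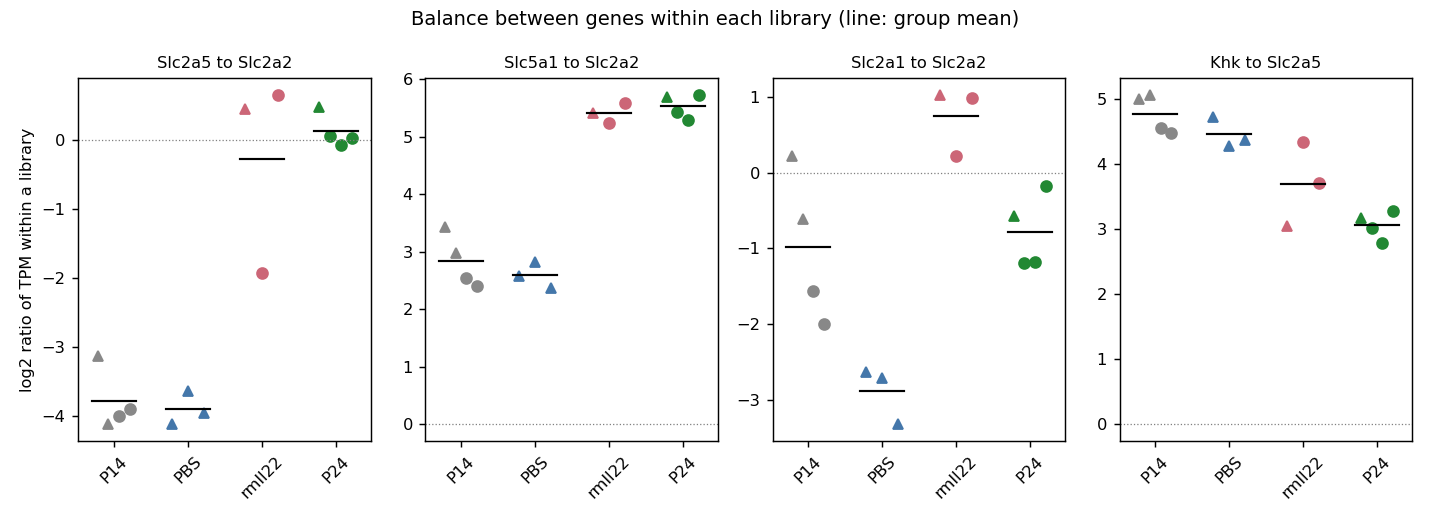
Log2 ratio of the TPM of 2 genes within each library (vertical axis, 0 meaning equal levels), by group, with a line at the group mean and point shapes as in the plot of levels. The ratio of Slc5a1 to Slc2a2 lies between 5.25 and 5.73 in all P24 and rmIl22 libraries and between 2.38 and 3.44 in all P14 and PBS libraries. The rmIl22 library at -1.94 for Slc2a5 to Slc2a2 is library 2.

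Slc5a1 and Khk were the most alike pair among the 5 genes by the root-mean-square difference of their centred log2(TPM + 1) over the 14 libraries (0.39), a smaller value meaning a closer pattern. Slc2a5 differed from Khk by 0.54 and from Slc5a1 by 0.57. Slc2a2 was the farthest from the rest, at 1.24 to 1.74. Neighbours were sought among 9353 genes with a mean of at least 5 TPM and a plain symbol, leaving out Gm, Rik and numbered predicted genes. Among these, the nearest to Slc5a1 were Bco2 (0.20), Glod5 (0.24) and Me2 (0.25). Nearest to Slc2a5 were Paqr4 (0.25), Crip1 (0.29) and Il17rc (0.30), and nearest to Khk were Slc22a4 (0.16), Slc52a2 (0.21) and Prr15 (0.22). Slc2a2 had no neighbour closer than Apol9a (0.50), followed by Gstm3 (0.58) and Eepd1 (0.60). Nearest to Slc2a1 were Pyy and Tbc1d2 (both 0.19) and R3hdm4 (0.21). Apol9a averaged 99.5 TPM in the PBS group and 19.3 TPM in the rmIl22 group.

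Other genes of sugar handling were followed in 7 lists with 47 distinct genes, of which 37 passed the expression filter in each comparison. Between P14 and P24, 15 of the 37 were called higher and 9 lower, beside 14.6% and 43.7% of all genes tested, with a median log2 fold change of 0.16 against -0.25 for all genes tested. Scaled to the epithelial genes, 17 were called lower and 10 higher, beside 10840 lower and 988 higher of all 14651 genes tested. Under IL-22, limma called 0 higher and 3 lower, beside 0.443% and 2.25% of all genes tested, with a median of -0.07 against -0.05 for all genes. Before adjustment 4 and 11 passed, but genes passing before adjustment were not counted over the whole table, here or for the single lists. The voom fit called 0 and 4, beside 75 and 247 of all 14456 genes tested. Without rmIl22 library 2 the counts were 2 and 9, beside 455 and 874 of 14281 genes. Without PBS library 1 or PBS library 3 no list gene was called lower, beside 11 and 3 of all genes. With the sex term 1 list gene was called lower, beside 80 of all genes.

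Among 9 other facilitative hexose carriers, 7 were tested with age, 2 rose and 1 fell, beside 14.6% and 43.7% of all genes tested. Slc2a7, a hexose carrier of the intestine, rose from 0.246 ± 0.237 to 3.61 ± 0.946 TPM (n = 4 each, log2 fold change 1.88, limma adjusted p = 5.32e-06), and Slc2a9, known as a urate carrier, from 5.43 ± 0.35 to 11 ± 1.71 TPM. Slc2a8, a carrier of internal membranes, fell from 22.2 ± 2.72 to 4.39 ± 0.535 TPM (a change of -2.11 on the log2 scale, adjusted p = 4.64e-08). It also fell under IL-22, from 31.5 ± 3.5 to 14.2 ± 1.35 TPM (n = 3 each, log2 fold change -1.10, adjusted p = 0.0125). Slc2a6 and Slc2a12 did not pass the filter, with at most 1.29 and 0.781 TPM.

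Among 7 other sodium-linked carriers, 5 were tested, and with age 2 rose and 1 fell, beside 14.6% and 43.7% of all genes tested. Slc5a4a rose from 0.274 ± 0.0662 to 6.85 ± 1.71 TPM and Slc5a4b from 1.78 ± 0.687 to 6.71 ± 1.33 TPM, both members of the SGLT3 group. Slc5a11, an inositol carrier, fell from 36.2 ± 5.61 to 11.8 ± 0.764 TPM (log2 fold change -1.53, limma adjusted p = 7.33e-07). It fell under IL-22 as well, from 73.3 ± 10.2 to 31.2 ± 2.37 TPM (a log2 change of -1.20, adjusted p = 0.0122). Its age and IL-22 effects were not shown to differ (difference -0.33, 95% interval -0.71 to 0.05, adjusted p = 0.185). Slc5a2, the renal glucose carrier SGLT2, and Slc5a10 were at most 0.039 and 0.206 TPM and were not tested.

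Of 8 tested genes of fructose and polyol breakdown, 3 rose and 2 fell with age, beside 14.6% and 43.7% of all genes tested. Akr1b7, of the aldose reductase family, rose from 0.756 ± 0.174 to 60.8 ± 11.9 TPM (log2 fold change 5.12, limma adjusted p = 1.64e-10). Tkfc, whose product phosphorylates glyceraldehyde from fructose, rose from 63.6 ± 14.2 to 112 ± 24.7 TPM (0.81 on the log2 scale, adjusted p = 0.00309), a call lost when scaled to the epithelial genes (adjusted p = 0.0689). Sord, which makes fructose from sorbitol, fell from 386 ± 65.7 to 148 ± 21.1 TPM, and Glyctk, a glycerate kinase, from 16.3 ± 3.05 to 3.43 ± 0.313 TPM. Of the 8, limma called 0 under IL-22 and voom called 0. Before adjustment 1 was higher and 4 were lower, with no share of all genes counted beside them. Without rmIl22 library 2 Akr1b7 was called higher and Glyctk and Hkdc1 were among those called lower, beside 9.31% of genes called.

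Of 5 tested genes of galactose breakdown, 4 were called lower and 1 higher with age, beside 43.7% and 14.6% of all genes tested. Galk1, the galactokinase that starts the pathway, fell from 405 ± 45.5 to 29.3 ± 2.64 TPM (log2 fold change -3.74, limma adjusted p = 1.88e-10). Galk2 fell from 48 ± 5.59 to 14.5 ± 0.298 TPM and Galt, the uridylyltransferase, from 34.1 ± 3.94 to 16.1 ± 0.523 TPM. Under IL-22 Galk1 fell from 396 ± 38.9 to 171 ± 12.8 TPM (a log2 change of -1.20, limma adjusted p = 0.011). Its age effect was larger by 2.54 on the log2 scale (limma adjusted p = 2.08e-07). Of the 5 genes, limma called 1 lower and 0 higher under IL-22, beside 2.25% and 0.443% of all genes tested. Before adjustment 4 were lower and 0 higher, and voom called 2 lower and 0 higher.

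Of the hexose kinases, 3 were tested with age and 2 were called higher, beside 14.6% of all genes tested. Hk2 rose from 5.89 ± 1.46 to 28.5 ± 7.61 TPM (log2 fold change 2.09, limma adjusted p = 3.21e-06) and Hkdc1 from 31.3 ± 11.2 to 66.7 ± 6.39 TPM. Hk1 was not called (log2 fold change 0.12, adjusted p = 0.499). Gckr was at most 0.0225 TPM and was not tested, and Hk3 was tested in the IL-22 comparison only. Under IL-22, limma called 0 of 4 (1 higher before adjustment, 0 by voom).

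Among regulators, Mlxipl, which encodes the sugar-responsive factor ChREBP, rose with age from 4.59 ± 0.88 to 10.3 ± 2.08 TPM (log2 fold change 1.01, limma adjusted p = 1.82e-04). Its partner Mlx rose by 0.51 and Txnip by 0.65 on the log2 scale, and both calls were lost when scaled to the epithelial genes (adjusted p = 0.913 and 0.111). Arrdc4, an arrestin family gene like Txnip, fell from 136 ± 26.4 to 48.4 ± 10.1 TPM. In all, 4 of 6 tested were called higher and 1 lower with age, beside 14.6% and 43.7% of all genes tested. Under IL-22 limma called 0 of 5, with 0 before adjustment and 0 by voom. The sweet taste genes Tas1r2 and Gnat3 did not pass the filter, with at most 0.0289 and 1.49 TPM, Tas1r3 was tested with age only, and Rsc1a1 was listed at 0 in every library. Of the 4 ion partners of sugar uptake, Atp1b1, a sodium pump subunit, rose with age from 133 ± 20.3 to 364 ± 55.7 TPM (a log2 change of 1.44, limma adjusted p = 4.34e-06). Under IL-22 limma called 0 of the 4 (1 lower before adjustment, 0 by voom).

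**Figure D5:**
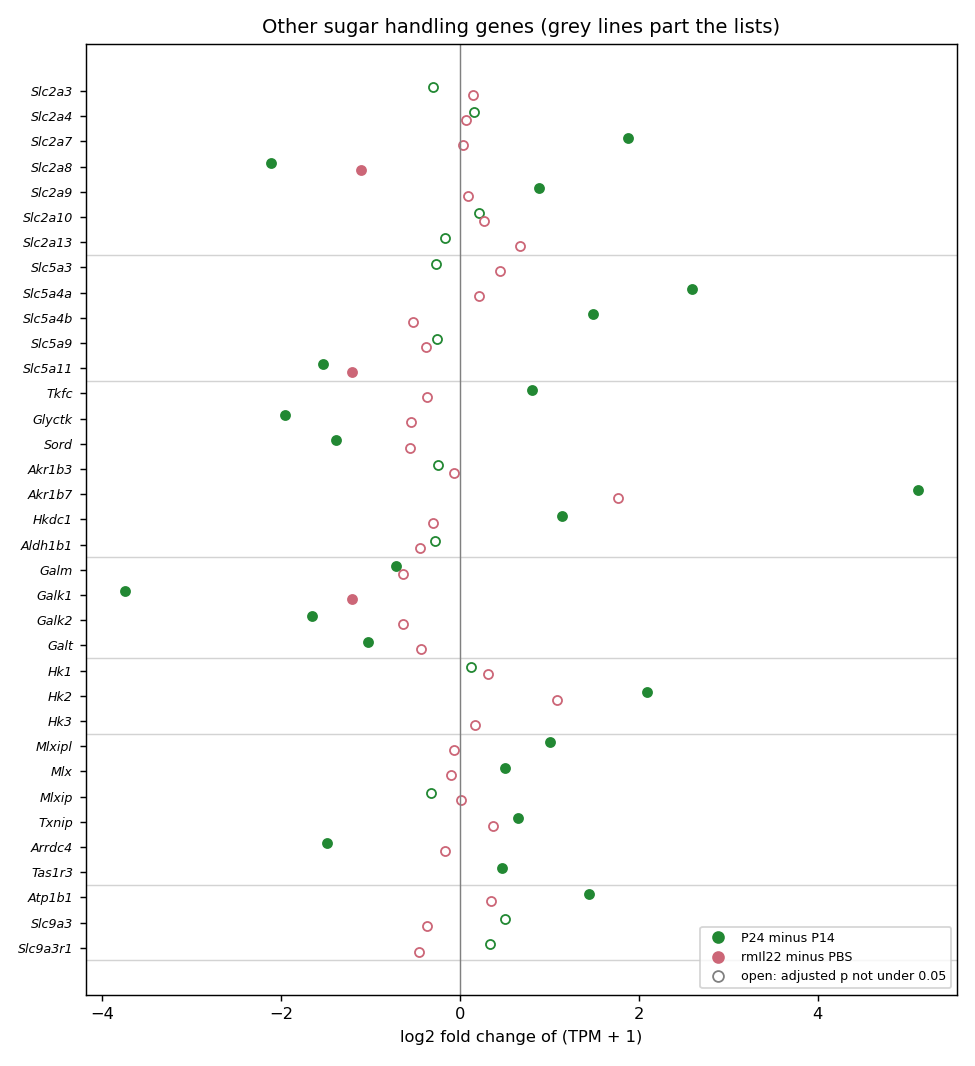
Log2 fold change of (TPM + 1) for the tested genes of the 7 lists of sugar handling, a few left out (horizontal axis), green for P24 minus P14 and red for rmIl22 minus PBS, filled where the adjusted p was under 0.05. Grey lines part the lists, in the order in which the text takes them. The filled red points are Slc2a8, Slc5a11 and Galk1, at -1.10, -1.20 and -1.20.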

How the data were processed

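RNA was measured in whole mouse ileum. The authors' deposited table gives TPM per gene and library. Per the labels, ribosomal RNA was depleted and libraries were stranded, and mm10, DESeq2 1.14, FastQC 0.11.2, STAR 2.4.0f and HTSeq 0.6.1p1 appear without roles in the submitters' processing notes. The authors' deposited comparison tables give a log2 fold change and adjusted p-value per gene. Of 46882 entries, 27 with number names were left out (at most 0.08% of TPM). The P14 and P24 columns carry numbers that are not the labels' replicate numbers and were assigned by group.

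Whole reads were recovered from the TPM for 31189 of 31189 genes with any value (tolerance 0.01). limma (3.58.1, R 4.3.3; trended variance) was fitted to log2(TPM + 1), two-sided, for genes of at least 1 TPM in at least 4 (age) or 3 (IL-22, all 14 libraries) libraries. The code was tested on simulated data. Ratios were tested by exact permutation (SciPy 1.17.1) and adjusted over 4 ratios. The alternatives were other pseudocounts (0.1), filters (none, 5 TPM), scalings, a sex term and voom on recovered reads, with each library left out in turn. The genes named from the lists are at most 3 called per list, direction and comparison with the largest change, and those not tested, but a few genes counted in the lists are not reported here by name. Lct, Fabp1, Hk1 and genes called without rmIl22 library 2 were named after their values were seen. The members and lists were chosen with earlier results of these data known.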

Additional observations from a re-analysis of the deposited data

Results flagged for a closer look

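Over the 5 genes and the other genes named from the lists, 54 groups of 4 libraries (27 genes) were searched for a library far from the others. Only Mlx in P24 library 1 was found, with 142 TPM against 131 to 132 TPM in the other 3 (gap over range 0.91, above the critical value for 4 values). Chance gives such a gap in about 1 of 20 groups.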

How the results depend on the processing

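With age, Slc5a1, Slc2a5 and Khk kept direction and call in all 17 alternatives (log2 fold changes 1.47 to 2.28, 2.16 to 3.50 and 0.97 to 1.79). The Slc2a1 call was lost with median-scaled TPM (-0.18), quantile normalisation (-0.18) and voom on recovered reads (-0.21), and without single libraries it ranged from -0.58 to -0.34, lost without P14 library 2 (adjusted p = 0.0519). Slc2a2 was called with age when scaled to epithelial genes (-1.14) and with the sex term (-0.86), ranged from -1.03 to -0.49 without single libraries and was smallest with median-scaled TPM (-0.38). Without single libraries the IL-22 changes ranged from -3.09 to -2.53 for Slc2a2, 0.23 to 0.97 for Slc2a5, -0.40 to 0.07 for Slc5a1 and -0.25 to 0.08 for Khk. Khk turned to 0.03 with quantile normalisation. Without single libraries the age differences in log2 ratio ranged from 3.80 to 4.13 (Slc2a5 to Slc2a2), 2.54 to 2.88 (Slc5a1 to Slc2a2) and -1.82 to -1.62 (Khk to Slc2a5), where 7 libraries cannot pass after adjustment (0.0762), and -0.13 (without P14 library 5) to 0.61 for Slc2a1 to Slc2a2. With a pseudocount of 1 they were 3.22 for Slc2a5 to Slc2a2 and -1.08 for Khk to Slc2a5. List genes called lower with age numbered 17 when scaled to epithelial genes. Under IL-22, list genes called higher numbered 3 in the fit of all 14 libraries, 1 with the replicate block and 0 to 2 without single libraries, and those called lower 8 in the fit of all 14, 1 with the sex term and 0 to 9 without single libraries. Over all genes, the age calls were 2146 higher and 6400 lower, against 4323 and 4139 with median-scaled TPM, 4246 and 4264 with voom and 988 and 10840 scaled to epithelial genes, and quantile normalisation gave 4041 higher. The IL-22 calls were 64 higher and 325 lower, against 230 and 828 in the fit of all 14, 19 and 79 with no filter, 34 and 165 scaled to epithelial genes, 42 and 80 with the sex term, and 1 to 455 and 3 to 874 without single libraries, and quantile normalisation gave 202 lower. The cause of these shifts was not tested. Same-numbered PBS and rmIl22 libraries deviated from their group means with correlations of -0.07, 0.33 and -0.05. Libraries of unlike number gave -0.34 to 0.4. With 3 libraries a group these values cannot show whether the numbers mark pairs. With the replicate block Slc2a2 fell by 2.82 (adjusted p = 0.0156), and the block changed no other call of the 5 genes. No paired analysis was possible for age because those columns do not carry the labels' numbers. Slc2a5 had no value under IL-22 at a filter of 5 TPM.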

Other observations

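Sis, the sucrase-isomaltase gene that supplies glucose and fructose from sucrose, separated the same IL-22 libraries as Slc2a5 did. It had 297, 84.2 and 295 TPM in rmIl22 libraries 1, 2 and 3, against 53.7 to 72.7 TPM in the PBS libraries. In the same rmIl22 libraries Slc2a5 had 9.98, 2.89 and 7.1 TPM, against 2.94 to 4.7 TPM under PBS. In rmIl22 library 2 Sis thus lay above all PBS libraries, whereas Slc2a5 lay below them. That library stood apart across the transcriptome, and other genes with this split were not counted. At P14 Sis had 6.54 to 8.63 TPM and at P24 750 to 1748 TPM. Sis was not called under IL-22 with all libraries (log2 fold change 1.64, limma adjusted p = 0.134).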
